A study of Homo sapiens with 6 samples.

Results

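The 10 antiviral effector genes described here were measured across the libraries of SW872-S, a human liposarcoma cell line: RSAD2, CMPK2, MX1, MX2, IFI44, IFI44L, SAMD9, SAMD9L, IFI6 and IFI27. They are 10 of the 60843 genes of the expression table and were found there by name. The set was chosen by name and selected on the FPKM values of TP53INP2_OE against NC in these same libraries, which were already known, so their values between the groups are given as a description, with no p-value, and their calls in the fit over all genes are stated only beside the share of all genes called. RNA sequencing covered 3 libraries of TP53INP2_OE, cells of this line that carry a plasmid overexpressing TP53INP2, and 3 libraries of NC, the negative control of the same line. TP53INP2 encodes a protein that helps autophagosomes to form. Both groups were grown in DMEM with serum and antibiotics, and the labels name no interferon, virus or other stimulus for either. No age or passage is given, and neither is a statement that a group is 1 clone or a pool. The study's design mentions 2 cell sources and leaves them undefined. Nothing states that libraries of 1 group are separate cultures, so the p-values reflect differences among libraries that may be no more than technical.

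Type I and type III interferons bind their receptors on the cell surface, and the receptor kinases JAK1 and TYK2 then activate transcription factors. These, STAT2 and IRF9 among them, bind a DNA element called the interferon-stimulated response element, and IRF3, activated by sensors of viral RNA or DNA, binds closely related elements without any interferon. The genes so induced encode proteins that block viruses inside the cell. RSAD2 (viperin) and CMPK2 act on nucleotides, MX1 and MX2 are dynamin-like GTPases that trap viral particles or their capsids, SAMD9 and SAMD9L restrict poxvirus replication in the cytosol, and IFI6 and IFI27 are small hydrophobic proteins of the endoplasmic reticulum and mitochondria. In tumour lines many of these genes are also expressed with no added interferon.

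The libraries held between 16038062 and 17607612 reads assigned to genes, recovered as whole reads from the deposited FPKM (fragments per kilobase of gene, scaled to library depth). The overexpressed gene went with its label: TP53INP2 measured 18.9, 23.4 and 27.1 FPKM in the TP53INP2_OE libraries, against 10.6, 9.45 and 9.67 FPKM in the NC libraries. Its log2 fold change was 1.13 ± 0.12 (SE, adjusted p = 0.00282). Among the 14791 genes that averaged 0.5 FPKM or more, 16.4% were higher and 18.6% lower at an adjusted p below 0.05, and the median log2 fold change was 0.003. The 7 mesenchymal markers summed to between 1191 and 1218 FPKM in TP53INP2_OE, against between 1250 and 1352 FPKM in NC, most of it VIM. COL1A2, at 0 FPKM in TP53INP2_OE and 0.009 FPKM in NC, and THY1, at 0.14 and 0.17 FPKM, were too low to be tested. VIM, at 750.6 FPKM in TP53INP2_OE and 730.8 FPKM in NC, was not called, and the other 4 of the 5 tested, COL1A1, COL6A1, PDGFRB and S100A4, fell by 0.44, 0.29, 0.41 and 0.27 on the log2 scale. Of these 4, only COL1A1 was still called lower after the GC and length fit (adjusted p = 0.0208). COL6A1, PDGFRB and S100A4 were not (adjusted p = 0.952, 0.137 and 0.372). The 8 leukocyte markers, which would mark immune cells, summed to between 0.92 and 1.45 FPKM in TP53INP2_OE and between 0.56 and 1.28 FPKM in NC, and PTPRC was at 0.002 FPKM in both groups. Of the adipocyte markers, FABP4, ADIPOQ and LEP were listed at 0 in all 6 libraries, and PPARG, the only one tested, was at 7.30 FPKM in TP53INP2_OE and 6.65 FPKM in NC (adjusted p = 0.109). PLIN1 had 19 reads over the TP53INP2_OE libraries and 3 over the NC libraries. Of the plasmacytoid dendritic cell markers, CLEC4C and LILRA4 were listed at 0, TCF4 was at 3.83 FPKM in TP53INP2_OE and 3.34 FPKM in NC, and IL3RA was at 0.95 FPKM in TP53INP2_OE and 1.08 FPKM in NC, neither of them called. Endothelial markers summed to between 32.0 and 33.4 FPKM in TP53INP2_OE and between 34.5 and 39.2 FPKM in NC, most of it CDH5. CDH5 was lower (adjusted p = 0.0323) and was not called after the GC and length fit (adjusted p = 0.408). PECAM1, at 3.955 FPKM in TP53INP2_OE and 3.695 FPKM in NC, and VWF, at 0.81 and 0.70 FPKM, had higher means in TP53INP2_OE and were not called. Epithelial markers summed to between 63.7 and 75.6 FPKM in TP53INP2_OE and between 81.3 and 83.5 FPKM in NC, nearly all of it KRT18 and KRT8. Both were called lower, and neither was after the GC and length fit. The part of these marker differences in the results was not tested. In bulk RNA a change in the number of expressing cells and a change in RNA per cell cannot be told apart.

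The promoters of these genes show what they share in sequence. RefSeq promoters on GRCh38.p14, each 250 bases before to 50 bases after a start site, were matched by symbol for 9 of the 10 genes, with MX2 unmatched. They were searched on both strands for the core of the interferon-stimulated response element, GAAANNGAAA, and for the same repeats 1 base apart, GAAANGAAA. Both motifs were chosen after the sequences were seen, and their matches can overlap. The stretches below run 5′ to 3′ on the strand of the gene, start 20 bases before the first match and end 20 bases after the last, or at 30 bases past the start site if that comes first. Capitals mark the matches, and TTTC repeats are the same motifs on the other strand. For MX1, IFI44 and IFI27, which have several starts, the stretch at the first is shown, and the matches near the second CMPK2 start are left out because they lie on the stretch shown for RSAD2. The other MX1 starts hold further matches, which the plot of motif positions shows.
RSAD2, first start: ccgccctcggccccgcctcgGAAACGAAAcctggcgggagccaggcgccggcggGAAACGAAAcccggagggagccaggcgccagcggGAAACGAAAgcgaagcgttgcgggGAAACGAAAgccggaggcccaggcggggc
RSAD2, second start: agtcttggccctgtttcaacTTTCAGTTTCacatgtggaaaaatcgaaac
MX1: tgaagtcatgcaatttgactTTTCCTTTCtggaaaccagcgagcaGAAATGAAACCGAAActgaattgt
IFI44: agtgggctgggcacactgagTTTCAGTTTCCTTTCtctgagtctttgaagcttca
IFI44L: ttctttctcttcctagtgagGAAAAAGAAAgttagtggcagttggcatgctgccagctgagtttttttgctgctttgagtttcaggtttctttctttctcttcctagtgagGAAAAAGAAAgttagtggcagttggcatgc
SAMD9: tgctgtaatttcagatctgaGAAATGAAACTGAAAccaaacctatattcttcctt
IFI6: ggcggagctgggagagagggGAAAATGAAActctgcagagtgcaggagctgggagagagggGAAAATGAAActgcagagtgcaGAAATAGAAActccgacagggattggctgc
IFI27: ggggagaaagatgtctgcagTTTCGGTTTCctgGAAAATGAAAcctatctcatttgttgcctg

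These lie on GRCh38.p14 at chr2:6865713-6865853 (plus strand) and chr2:6877612-6877661 (plus) for RSAD2, chr21:41420519-41420587 (plus) for MX1, chr1:78649751-78649805 (plus) for IFI44 and chr1:78620264-78620404 (plus) for IFI44L. The others are at chr7:93118086-93118140 (minus) for SAMD9, chr1:27672256-27672368 (minus) for IFI6 and chr14:94110608-94110670 (plus) for IFI27. GAAANNGAAA was in a promoter of 7 of the 9 genes, against 4.38% of 27305 genes and 3.57% of 35116 promoters in the RefSeq table. GAAANGAAA was in 5 of the 9, against 3.87% of genes, and 8 of the 9 held at least 1 of the motifs, against 7.83% of genes. IFI6 had 3 copies of the core, IFI44L and IFI27 had 2, and no SAMD9L promoter held either motif. In IFI44, SAMD9 and MX1 a match with 1 base between the repeats overlapped one with 2 bases, so that 3 repeats stand in a row. A match is a run of letters and not a shown binding site.

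**Figure D1:**
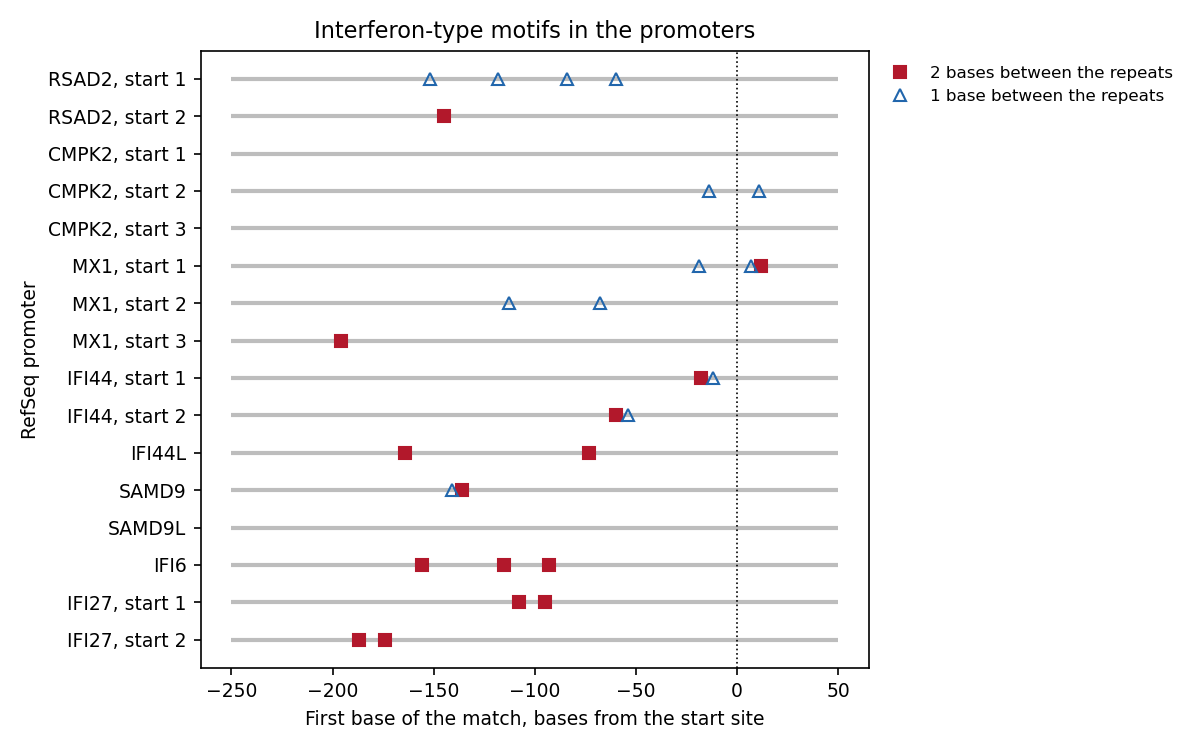
Positions of the motif matches in the RefSeq promoters of 9 genes, with the first base of each match on the x axis in bases from the start site and 1 line per promoter. Filled squares are GAAANNGAAA and open triangles GAAANGAAA, on either strand. RSAD2 has 4 triangles at its first start, IFI6 has 3 squares, and the SAMD9L line and those of 2 CMPK2 starts are empty.

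RSAD2 and CMPK2 lie on opposite strands and meet at their 5′ ends. The first RSAD2 start and the second CMPK2 start face away from each other, 66 bases apart. That CMPK2 start lies inside the stretch shown for RSAD2. The other CMPK2 starts lie past that RSAD2 start, so from them the genes overlap. RSAD2 (ENSG00000134321, chr2:6865806-6898239, plus strand) and CMPK2 (ENSG00000134326, chr2:6840570-6866635, minus strand) overlap by 830 bases at their 5′ ends in the gene models of the table. The RefSeq promoters of the first RSAD2 start and the second CMPK2 start share 165 bases, and 2 of the 4 GAAACGAAA copies shown for RSAD2 lie in both. The sources used here do not state a strand setting for read assignment, so reads from the shared 830 bases cannot be told apart.

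Of the 10 genes, 6 had all 3 TP53INP2_OE libraries above all 3 NC libraries, and none had them all below. Among all tested genes 25.2% had all TP53INP2_OE libraries above. The 6 were RSAD2, CMPK2, IFI44, IFI44L, SAMD9 and SAMD9L, while MX1, MX2, IFI6 and IFI27 overlapped between the groups. Of the 10 genes, 8 passed the filter of 0.5 FPKM, and 5 of these 8 were called higher and 0 lower in the fit over all genes, beside the 16.4% and 18.6% given above. The share of genes called higher differed widely with GC content, and the shares at the GC content of the 8 are given further below. Since this contrast was known when the genes were chosen, nothing is read from these counts. The 8 had a median log2 fold change of 0.68, against 0.003 over all tested genes. Reads assigned to the 10 genes together numbered 10360, 11205 and 10357 in the TP53INP2_OE libraries, against 5799, 6706 and 6520 in the NC libraries.

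**Figure D2:**
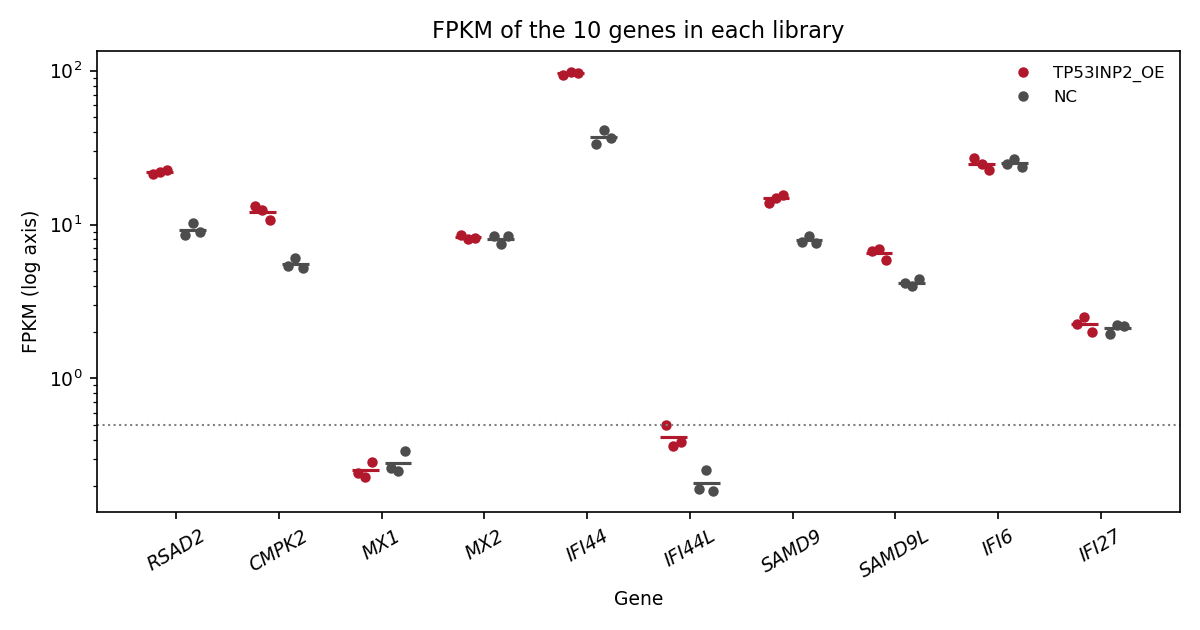
FPKM of each of the 10 genes (log axis), 1 point per library, with TP53INP2_OE left of NC, bars at the group means of 3 libraries and a dotted line at the filter of 0.5 FPKM. RSAD2, CMPK2, IFI44, IFI44L, SAMD9 and SAMD9L have separate groups, and MX1, MX2, IFI6 and IFI27 overlap.

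The nucleotide enzymes RSAD2 and CMPK2 both separated. RSAD2 turns CTP into a chain-terminating analogue that stops viral RNA polymerases. It measured 21.3, 22.1 and 22.5 FPKM in the TP53INP2_OE libraries, against 8.52, 10.3 and 8.88 FPKM in the NC libraries. The TP53INP2_OE libraries lay close together, with a coefficient of variation of 2.81% against 10.3% in NC, and the lowest of them was above the highest NC library. The means were 22.0 ± 0.62 and 9.24 ± 0.95 FPKM (SD, n = 3 each), a ratio of 2.38, and the log2 fold change on the log2(FPKM + 1) scale was 1.17 ± 0.07 (SE). These values rest on between 656 and 1794 reads a library, and 27 genes of the 14791 had a larger increase.

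CMPK2 is a mitochondrial nucleoside monophosphate kinase that phosphorylates CMP and UMP and feeds mitochondrial DNA synthesis in activated macrophages. It measured 13.1, 12.5 and 10.7 FPKM in the TP53INP2_OE libraries, against 5.36, 6.07 and 5.23 FPKM in the NC libraries. The lowest TP53INP2_OE library, replicate 3, was still above every NC library. The means were 12.1 ± 1.24 and 5.55 ± 0.45 FPKM (SD, n = 3 each), a ratio of 2.19 and a log2 fold change of 1.00 ± 0.08 (SE). Within a library RSAD2 was at 1.62, 1.77 and 2.10 times the FPKM of CMPK2 in TP53INP2_OE and at 1.59, 1.70 and 1.70 times in NC. These ratios overlapped between the groups.

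The dynamin-like GTPases did not separate. MX1 (ENSG00000157601, chr21:41420304-41459214, plus strand) acts on influenza and other RNA viruses. It measured 0.24, 0.23 and 0.29 FPKM in the TP53INP2_OE libraries, against 0.26, 0.25 and 0.34 FPKM in the NC libraries, which rest on between 34 and 52 reads a library. The groups overlapped, MX1 was below the filter, and its log2 fold change in a fit without the filter was -0.03 ± 0.06 (SE). MX2 (ENSG00000183486, chr21:41361999-41409393, plus strand), its paralog next to it, blocks nuclear entry of HIV-1. It measured 8.51, 8.08 and 8.16 FPKM in the TP53INP2_OE libraries, against 8.37, 7.48 and 8.40 FPKM in the NC libraries. The groups overlapped, with a log2 fold change of 0.03 ± 0.05 (SE). MX2 was at 32.9 ± 3.77 times the FPKM of MX1 in TP53INP2_OE and 28.9 ± 3.63 times in NC (SD, n = 3 each), so the paralogs differed far more from each other than either did between the groups.

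Among the cytosolic inhibitors IFI44 had the largest fold change of the 10 genes. IFI44 (ENSG00000137965, chr1:78649796-78664078, plus strand) encodes a cytoplasmic protein that associates with microtubular structures and slows proliferation of some cell lines when overexpressed. It measured 93.3, 98.5 and 96.4 FPKM in the TP53INP2_OE libraries, against 33.3, 41.5 and 36.7 FPKM in the NC libraries. The lowest TP53INP2_OE library was at 2.25 times the highest NC library. The means were 96.1 ± 2.61 and 37.2 ± 4.09 FPKM (SD, n = 3 each), a ratio of 2.58 and a log2 fold change of 1.35 ± 0.08 (SE), and 10 genes had a larger increase.

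Its neighbour and paralog IFI44L (ENSG00000137959, chr1:78619922-78646145, plus strand) was far lower. It measured 0.49, 0.36 and 0.39 FPKM in the TP53INP2_OE libraries, against 0.19, 0.25 and 0.19 FPKM in the NC libraries. The groups did not overlap, but the values rest on between 32 and 82 reads a library and stay below the filter. The ratio of the means was 1.97, and the log2 fold change in the fit without the filter was 0.22 ± 0.07 (SE), which the added pseudocount of 1 makes smaller for a gene at this level. IFI44 was at 188, 271 and 250 times the FPKM of IFI44L in TP53INP2_OE and at 174, 163 and 197 times in NC, and these ratios overlapped.

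SAMD9 (ENSG00000205413, chr7:93099513-93118023, minus strand) is an antiviral protein that also restrains growth. It measured 13.8, 14.9 and 15.7 FPKM in the TP53INP2_OE libraries, against 7.68, 8.39 and 7.64 FPKM in the NC libraries. The groups were well apart, with a ratio of the means of 1.87 and a log2 fold change of 0.83 ± 0.06 (SE). SAMD9L (ENSG00000177409, chr7:93130056-93148385, minus strand) is its paralog on the same strand. It measured 6.76, 6.91 and 5.92 FPKM in the TP53INP2_OE libraries, against 4.19, 3.99 and 4.40 FPKM in the NC libraries. The groups did not overlap here either, and the ratio was 1.56 with a log2 fold change of 0.53 ± 0.07 (SE). SAMD9 was at 2.28 ± 0.32 times the FPKM of SAMD9L in TP53INP2_OE and 1.89 ± 0.19 times in NC (SD, n = 3 each), with overlapping ranges. Reads that match both paralogs of a pair could be split differently by the authors' counting, which is not described.

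The small hydrophobic proteins overlapped between the groups. IFI6 (ENSG00000126709, chr1:27666064-27672198, minus strand) protects the endoplasmic reticulum from the membrane remodelling of flaviviruses. It measured 27.1, 24.9 and 22.6 FPKM in the TP53INP2_OE libraries, against 24.9, 26.6 and 23.6 FPKM in the NC libraries. The groups overlapped, with a log2 fold change of -0.01 ± 0.07 (SE). IFI27 (ENSG00000165949, chr14:94104836-94116698, plus strand) encodes a mitochondrial and nuclear-envelope protein that is among the most strongly induced genes in blood cells during viral infection. It measured 2.25, 2.50 and 2.01 FPKM in the TP53INP2_OE libraries, against 1.94, 2.22 and 2.18 FPKM in the NC libraries. The groups overlapped, with a log2 fold change of 0.06 ± 0.08 (SE) and between 131 and 178 reads a library.

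In order of level in TP53INP2_OE, mean FPKM ran from IFI44 at 96.1 through IFI6 at 24.8, RSAD2 at 22.0, SAMD9 at 14.8, CMPK2 at 12.1, MX2 at 8.25, SAMD9L at 6.53, IFI27 at 2.25 and IFI44L at 0.41 to MX1 at 0.25. No neighbours in that order overlapped over the 3 libraries, but IFI6 and RSAD2 nearly touched. The lowest IFI6 library and the highest RSAD2 library both rounded to 22.55 FPKM. In NC, IFI44 at 37.2 FPKM and IFI6 at 25.0 FPKM also stood first, followed by RSAD2 at 9.24 FPKM. There MX2 at 8.08 FPKM and SAMD9 at 7.90 FPKM overlapped, as did MX1 at 0.28 FPKM and IFI44L at 0.21 FPKM. IFI6 thus stood at 2.71 times RSAD2 in NC but only 1.13 times in TP53INP2_OE.

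GC content moved with the fold changes of all genes. When the protein-coding genes were put in 10 bins of equal size by GC content of the longest transcript, the bin lowest in GC had a median log2 fold change of 0.24 and the bin highest in GC one of -0.32. RSAD2, IFI44, SAMD9 and SAMD9L have a GC content of between 36.0% and 41.8% and fall in the lowest 3 bins, and CMPK2, MX2 and IFI27, at between 48.8% and 50.5%, fall in bin 6, whose median was -0.04. The share of genes called higher was 37.8% in the bin of RSAD2, 51.0% in that of IFI44 and SAMD9L, and 61.0% in that of SAMD9. It was 6.21% in the bin of CMPK2, MX2 and IFI27, and 0.98% in that of IFI6. Within its own bin of 1127 genes, no gene had a larger increase than RSAD2 or IFI44, 1 did than CMPK2, 2 than SAMD9 and 15 than SAMD9L. In their bins 361 genes ranked above MX2, 265 above IFI27 and 137 above IFI6. The effectors were selected on these same fold changes, so the ranks are a description. With GC content and gene length fitted out of each library, the log2 fold changes were 1.03 ± 0.07 for RSAD2, 1.03 ± 0.08 for CMPK2, 1.18 ± 0.07 for IFI44, 0.61 ± 0.06 for SAMD9 and 0.33 ± 0.06 for SAMD9L (SE). The same 5 genes were called higher there, beside 4.53% higher and 5.88% lower of 14548 genes with a known GC content, and the median of the 8 was 0.47. IFI6, the richest in GC of the 8 at 56.1%, had a value of 0.18 ± 0.07 after the fit and was not called. What part of the uncorrected fold changes goes with GC content through biology or through library preparation was not tested.

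**Figure D3:**
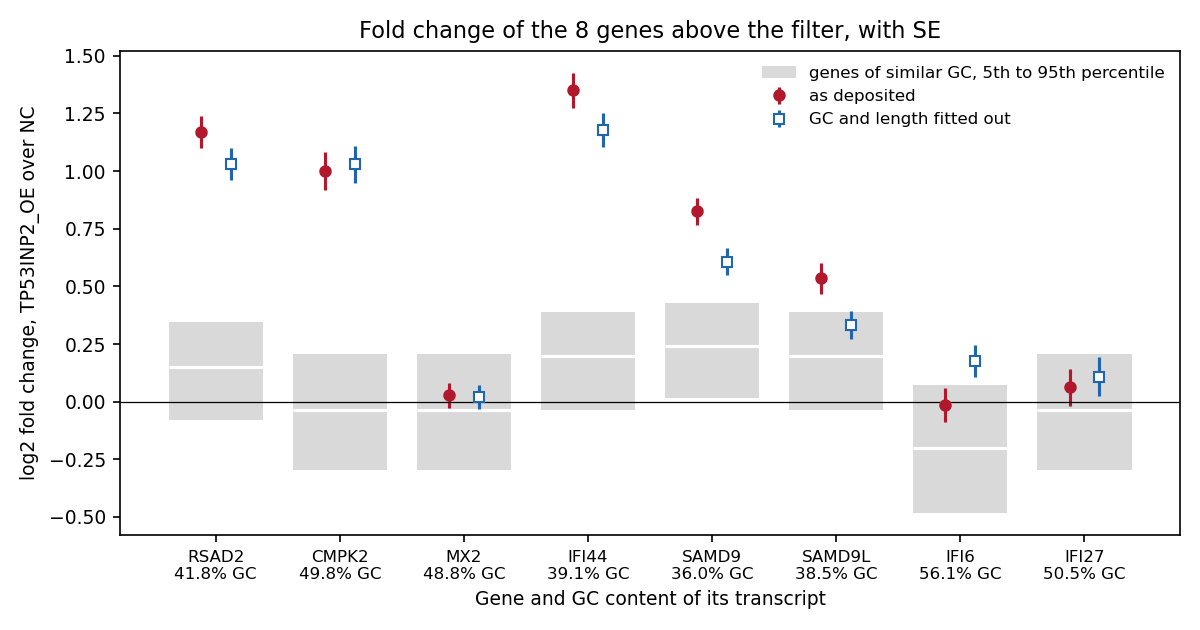
Log2 fold change of TP53INP2_OE over NC with SE for the 8 genes above the filter, as deposited (filled circles) and with GC content and gene length fitted out (open squares). Grey boxes span the 5th to the 95th percentile of the 1127 genes in the same bin of GC content, with a white line at their median. The boxes hold values as deposited, so the squares are not to be read against them. RSAD2, CMPK2, IFI44, SAMD9 and SAMD9L lie above their boxes as deposited, and MX2, IFI6 and IFI27 lie inside.

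The rest of the interferon pathway was described with 107 genes in 7 lists by role. Of these, 81 passed the filter, and 29 were higher (35.8%) and 14 lower (17.3%), beside 16.4% and 18.6% of all tested genes. Their median log2 fold change was 0.16, against 0.003 over all tested genes. After the GC and length fit, 21 were higher and 3 lower, with a median of 0.08, beside 4.53% higher and 5.88% lower of all genes in that fit. Without NC replicate 1, the number lower was 9. The lists were written with earlier results of these data known, so the counts are no independent evidence of a direction.

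The ligands were near the floor. Of 21 interferon genes, 12 were listed at 0 in all libraries and 2 passed the filter, neither of them called. IFNB1, which encodes interferon beta, measured 1.77, 2.64 and 2.57 FPKM in the TP53INP2_OE libraries, against 2.71, 2.02 and 1.67 FPKM in the NC libraries, and the groups overlapped (log2 fold change 0.09 ± 0.16 SE, adjusted p = 0.699). IFNL1, interferon lambda 1, averaged 1.46 ± 0.24 FPKM in TP53INP2_OE and 1.86 ± 0.81 FPKM in NC (SD, n = 3 each, adjusted p = 0.508). Among the receptors, 1 of 3 tested was higher: IFNAR1, a chain of the type I receptor, averaged 11.2 ± 0.92 FPKM in TP53INP2_OE and 9.51 ± 0.16 FPKM in NC (adjusted p = 0.0312), and it was not called after the GC and length fit (adjusted p = 0.378). Its partner chain IFNAR2 was at 0.27 FPKM in TP53INP2_OE and 0.24 FPKM in NC, below the filter. The chains of the interferon gamma receptor, IFNGR1 at 15.8 FPKM in TP53INP2_OE and 13.3 FPKM in NC and IFNGR2 at 15.4 FPKM in TP53INP2_OE and 15.5 FPKM in NC, did not pass (adjusted p = 0.0567 and 0.995).

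Of the 11 signalling factors tested, 3 were higher and 3 lower, beside 16.4% and 18.6% of all tested genes. JAK2, a kinase of the interferon gamma receptor, was higher by 0.47 ± 0.06 (SE, adjusted p = 0.00347), and JAK1 by 0.27 ± 0.04 (adjusted p = 0.0059), on the log2 scale. STAT2 at 7.74 and IRF9 at 0.60 FPKM in TP53INP2_OE, against 7.20 and 0.73 FPKM in NC, did not pass (adjusted p = 0.251 and 0.571). IRF3, the factor activated by the sensors, fell by 0.52 on the log2 scale (adjusted p = 0.00355), and TYK2 fell by 0.31 (adjusted p = 0.00681). IRF3 stayed lower after the GC and length fit (adjusted p = 0.0267) and TYK2 did not (adjusted p = 0.403).

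Among the sensors the largest fold change was that of DDX58, which encodes the RNA sensor RIG-I. It measured 51.4, 55.5 and 55.7 FPKM in the TP53INP2_OE libraries, against 20.3, 25.7 and 22.5 FPKM in the NC libraries, a log2 fold change of 1.22 ± 0.08 (SE, adjusted p = 0.00166). IFIH1, the RNA sensor MDA5, was higher by 0.56 ± 0.06 (adjusted p = 0.00276), and both stayed higher after the GC and length fit. IFI16 and the kinase TBK1 were higher by 0.30 and 0.32 (adjusted p = 0.0126 and 0.00624) and were not called after it. In all, 4 of 12 tested sensors and adaptors were higher and 2 lower. Those 2, MAVS and IKBKE, fell by 0.21 and 0.25 (adjusted p = 0.0132 and 0.0253). MAVS stayed lower after the GC and length fit (adjusted p = 0.0432) and IKBKE did not (adjusted p = 0.807). Of the feedback and ISG15 genes, 3 of 9 were higher and 2 lower, again beside 16.4% and 18.6% of all tested genes for both lists. The higher ones included HERC6 at 0.75 and HERC5, the ligase that attaches ISG15, at 0.68 (adjusted p = 0.00272 and 0.00131). The lower ones were SOCS3 and SOCS1, inhibitors of JAK signalling, at -0.51 and -0.40 (adjusted p = 0.00397 and 0.0223), and neither was called after the fit.

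Of the IFIT, OAS and IFITM genes, 6 of 12 were higher and 2 lower, beside 16.4% and 18.6% of all tested genes, with a median log2 fold change of 0.31, against 0.003 over all. IFIT3, which stabilises the binding of viral RNA by IFIT1, averaged 170.8 ± 2.74 FPKM in TP53INP2_OE and 85.4 ± 4.79 FPKM in NC (SD, n = 3 each), and OASL, which promotes RIG-I signalling, 104.8 ± 3.34 and 54.3 ± 2.89 FPKM. Their log2 fold changes were 0.99 ± 0.05 and 0.94 ± 0.05 (SE, adjusted p = 0.00131 for both), and IFIT1 and IFIT2 were higher by 0.58 and 0.60. The IFITM genes went the other way. IFITM1 and IFITM2 fell by 0.51 and 0.36 (adjusted p = 0.00654 and 0.0114), and IFITM1 alone stayed lower after the GC and length fit (adjusted p = 0.037). IFITM3 had all TP53INP2_OE libraries below all NC libraries but was not called (adjusted p = 0.0717). Of 32 other interferon-induced effectors tested, 12 were higher and 5 lower, with a median of 0.17, beside the same 16.4% and 18.6% of all tested genes. After the GC and length fit 7 were higher and 0 lower, with a median of 0.08, beside 4.53% and 5.88% of all genes in that fit. DDX60, a helicase of the antiviral response, averaged 20.7 ± 0.23 FPKM in TP53INP2_OE and 7.93 ± 0.88 FPKM in NC, a log2 fold change of 1.29 ± 0.07 (SE, adjusted p = 0.00131). ZC3HAV1, which binds CpG-rich viral RNA, was higher by 0.91 ± 0.06 (adjusted p = 0.00137) and DDX60L by 0.59 ± 0.07 (adjusted p = 0.0029). BST2, which tethers budding virions, went the other way and fell by 0.44 (adjusted p = 0.00818), a call that was lost after the GC and length fit (adjusted p = 0.0852).

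**Figure D4:**
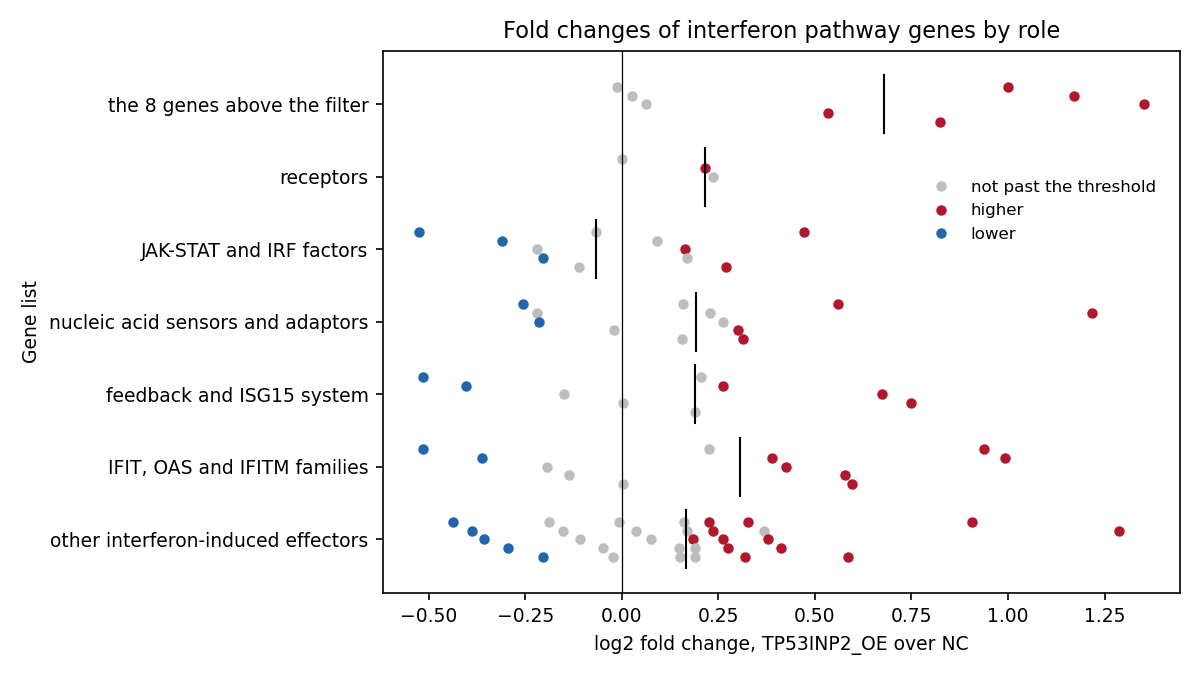
Log2 fold change of TP53INP2_OE over NC for each tested gene of the interferon pathway by role, with the 8 effectors above the filter in the first line, 1 point per gene and the ligands not drawn. Red points were higher and blue points lower at an adjusted p below 0.05, grey points passed neither way, and black lines are medians. The effectors, chosen with this contrast known, have a median of 0.68, which is not read against the other lists. The medians of those lists lie between -0.07 and 0.31.

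The genes whose pattern over the 6 libraries was nearest to that of RSAD2 were FGF2, DDX58, SPOCK1, DDX60 and ITGA2, among 6897 protein-coding genes averaging 5 FPKM or more. The measure was the root mean square difference of log2(FPKM + 1) after each gene's mean was subtracted, and it was 0.03 for FGF2, 0.04 for DDX58, 0.06 for SPOCK1, and 0.07 for DDX60 and for ITGA2. For IFI44 the 5 nearest were the same genes in another order, DDX60 at 0.04, DDX58 at 0.07, FGF2 at 0.09, SPOCK1 at 0.12 and ITGA2 at 0.16. FGF2, a growth factor that is no part of the interferon lists, measured 13.9, 14.1 and 15.5 FPKM in the TP53INP2_OE libraries, against 5.28, 6.45 and 5.50 FPKM in the NC libraries. In RSAD2, IFI44, DDX58, DDX60 and FGF2 alike, replicate 2 was the highest of the NC libraries. DDX58, DDX60 and FGF2 were picked for likeness over all 6 libraries, so a shared order is part of that choice. Replicate 2 was also the highest NC library for CMPK2, IFI44L, SAMD9, IFI6 and IFI27, and replicate 3 was for MX1, MX2 and SAMD9L. The 6 libraries in 2 groups leave few patterns to tell genes apart, so the order is a description.

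The genes beside the 10 effectors were counted in the same fit. Of 12 nearest protein-coding neighbours, 6 passed the filter, and the others were listed at 0 or at no more than 9 reads in a library. Of these 6, 2 were called higher and 2 lower, beside 16.4% and 18.6% of all tested genes. The number lower was 1 when TP53INP2_OE replicate 1 or 2 or NC replicate 1 or 2 was left out. After the GC and length fit 1 was higher and 0 lower, beside 4.53% and 5.88%. RNF144A, a ubiquitin ligase gene 19173 bases beyond RSAD2, measured 17.9, 18.0 and 17.3 FPKM in the TP53INP2_OE libraries, against 14.9, 15.5 and 14.2 FPKM in the NC libraries. It was higher by 0.24 ± 0.04 (SE, adjusted p = 0.0075), also after the GC and length fit (adjusted p = 0.0207). CDK6, the nearest such gene on the other side of SAMD9 from SAMD9L, was higher by 0.24 ± 0.05 (adjusted p = 0.0112) but not after it (adjusted p = 0.504). PTGFR beside IFI44L and FAM76A beside IFI6 did not pass (adjusted p = 0.154 and 0.287).

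On either side of IFI27 lie its relatives IFI27L1 and IFI27L2, both lower. IFI27L1 measured 1.86, 2.10 and 2.75 FPKM in the TP53INP2_OE libraries, against 3.28, 3.88 and 3.67 FPKM in the NC libraries. IFI27L2 measured 0.77, 0.51 and 1.00 FPKM in the TP53INP2_OE libraries, against 2.64, 2.01 and 1.30 FPKM in the NC libraries, on between 14 and 69 reads. They fell by 0.52 and 0.75 on the log2 scale (adjusted p = 0.0131 and 0.0236), and after the GC and length fit the adjusted p was 0.0913 and 0.103. IFI27 itself, between them, overlapped between the groups.

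Of 21 tested relatives of the effectors, by family or by biochemical step, 5 were higher and 10 lower, IFI27L1 and IFI27L2 included, beside 16.4% higher and 18.6% lower of all tested genes. After the GC and length fit 0 were higher and 2 lower, beside 4.53% and 5.88%. The number higher was 3 without TP53INP2_OE replicate 3 or NC replicate 1 or 2, and the number lower was 6 without NC replicate 1 or 2. Of the dynamin family, DNM1L, which divides mitochondria, was higher by 0.32 ± 0.05 (SE, adjusted p = 0.00562), and DNM1 and DNM2 fell by 0.19 and 0.22 (adjusted p = 0.0292 and 0.00848). In the nucleotide steps next to CMPK2, TYMS, thymidylate synthase, averaged 18.0 ± 1.25 FPKM in TP53INP2_OE and 25.9 ± 1.16 FPKM in NC (SD, n = 3 each, adjusted p = 0.00299), and the thymidylate kinase DTYMK fell by 0.31 (adjusted p = 0.00328). CMPK1, the cytosolic counterpart of CMPK2, averaged 53.6 FPKM in TP53INP2_OE and 45.2 FPKM in NC, and was higher by 0.24 (adjusted p = 0.00681). POLG, the mitochondrial DNA polymerase, fell by 0.31 (adjusted p = 0.0189), and TFAM, which packages that DNA, was higher by 0.18 (adjusted p = 0.0403). RRM2B and the kinase DCK were higher by 0.21 and 0.33 (adjusted p = 0.01 and 0.0291). CTPS1, which makes the CTP that RSAD2 uses, averaged 14.0 ± 0.54 FPKM in TP53INP2_OE and 15.7 ± 0.46 FPKM in NC (adjusted p = 0.0317). CIAO2B, of the machinery that inserts iron-sulfur clusters, fell by 0.49 and FDPS, an enzyme of isoprenoid synthesis, by 0.26 (adjusted p = 0.00166 and 0.0123). After the GC and length fit only TYMS and CTPS1 of these relatives stayed called, both lower (adjusted p = 0.00866 and 0.0161).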

How the data were processed

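RNA sequencing of 6 libraries was analysed from 1 deposited table. The sample titles gave groups and replicate numbers. The authors deposited FPKM values with gene name, position and length, per the file headers. Bowtie 0.12.2, mm8 and GRCh38 are listed, with no role, per the submitters' processing notes. How reads were counted per gene is not given in the sources used. Gene positions are on GRCh38: 96.2% of the IDs were found in GENCODE 29, 92.8% of these with the same start or end. FPKM times length gave whole reads for every value above 0, within a tolerance of 0.01.

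Values were tested as log2(FPKM + 1) with limma 3.58.1 in R 4.3.3 (empirical Bayes with trend, Benjamini-Hochberg over all 14791 genes averaging 0.5 FPKM or more, threshold 0.05). The pseudocount understates the change of low genes. The fit was tested on simulated data. For the GC and length fit, natural splines (5 degrees of freedom) described how far each library lay from the gene's mean by GC content of the longest GENCODE 29 transcript, known for 98.4% of tested genes, and log2 length, and the fitted trend was subtracted. Alternatives covered the pseudocount, filters, protein-coding genes alone, TPM, quantile scaling, voom on recovered reads, that fit, a replicate block and leaving out each library. All 10 effectors were named whatever their value. From each pathway list up to 4 called genes with the largest change were named. Where fewer than 2 were called, the 2 highest expressed genes were named. STAT2, IRF9, IFNB1, IFNAR1, IFNAR2, MAVS, IKBKE and the IFITM genes were added, and so were neighbours, relatives and the 5 genes nearest in pattern. A gene of the rule is not reported here and stays in its list's counts. The effectors, lists and motifs were chosen with earlier results of these data known.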

Additional observations from a re-analysis of the deposited data

How the results depend on the processing

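The same 5 effectors were higher, and none lower, under every alternative run, except that 4 were higher in the replicate block with GC and length correction, where SAMD9L was not called. No fold change of a called effector turned its sign. Pathway genes called higher numbered 29, and 14 in the replicate block with the correction. Those called lower numbered 14, and 3 with the correction, 0 in the block with it, and 9 to 15 without one library. Neighbours called higher numbered 2, and 1 with the correction and in the block with it. Those called lower numbered 2, and 1 without the filter, 0 at a mean of at least 5 FPKM, 0 with the correction, 0 in the block with it, and 1 to 2 without one library. Relatives called higher numbered 5, and 3 without the filter, 0 with the correction, 0 in the block with it, and 3 to 5 without one library. Those called lower numbered 10, and 6 without the filter, 2 with the correction, 2 in the block with it, and 6 to 9 without one library. Over all genes 2430 were higher and 2753 lower, and 659 and 855 with the correction, 267 and 401 in the block with it, 1460 and 1816 without NC replicate 1, and 1614 higher without NC replicate 2. Fewer libraries leave fewer degrees of freedom, and otherwise the cause was not tested. The replicate numbers did not pair the samples (r between 0.01 and 0.02 for same-numbered libraries), and the replicate block alone left the counts of effectors at 5 higher and 0 lower. Depth limits MX1 and IFI44L, with at most 82 reads a library.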
